A study of Mus musculus with 3 samples.

Results

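Prostanoids are made from arachidonic acid in a short relay of enzymes, and 9 genes of that relay and of its receptors were followed through the cells of mouse glomeruli. They were the cyclooxygenases Ptgs1 and Ptgs2, the terminal synthases Ptgds, Ptges and Ptgis, and the receptors Ptger1, Ptger3, Ptger4 and Tbxa2r. All 9 were found by symbol among the 31058 gene rows of the deposited matrices, and all 9 are described. Unique molecular identifiers (UMIs, one per captured RNA molecule) of each gene were added up within each class of cells in each library and expressed per 1000000 UMIs of that class (CPM).

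The study profiled single cells from mouse glomeruli, the filtering units of the kidney, with 10x Genomics 3′ chemistry, and deposited 3 libraries. One library came from a male, one from a female and one from a female RPC-ERαKO mouse (ERαKO below), and the labels neither spell out RPC nor say how many animals were pooled. All mice were healthy, on a C57Bl/6 background, and carried Pax2.rtTA;TetO.Cre;R26.Confetti, so that the controls held the transgenes too, and the third library added ERalphaKO, a deletion of the estrogen receptor alpha. Doxycycline was given at 20 days of age, and the cells were traced to 90 days of age; in this design the Pax2 promoter drives the doxycycline-dependent activator of Cre, which limits recombination to cells in which that promoter was active. Each group was a single library, so no difference between groups could be tested against the spread between animals. Intervals given below are exact 95% counting intervals (Poisson for CPM, Clopper-Pearson for shares of cells), a count of 0 is given with the level that 3 UMIs would reach, and both cover counting error only.

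Arachidonic acid released from membranes by phospholipases is turned by the cyclooxygenases into an unstable intermediate, prostaglandin H2. Terminal synthases convert it into prostaglandin D2 (Ptgds), prostaglandin E2 (Ptges) or prostacyclin (Ptgis), and each product acts close to where it is made on receptors coupled to G proteins. In the kidney this system is known for its part in glomerular blood flow, renin release and the handling of salt and water, and Ptgs2 of the macula densa and Ptgs1 of the collecting duct are its textbook sites.

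After filtering, 8600 cells remained, 3240 male, 2896 female and 2464 ERαKO, and a median cell held 7337, 8950 and 8032.5 UMIs. The share of barcodes over the mitochondrial limit of 25% came to 20.97% in the male, 17.7% in the female and 34.0% in the ERαKO library. The doublet caller removed 93, 4 and 149 cells, and with 4 of 2900 cells it cannot be said to have worked in the female library. No more than 8 cell barcodes were shared between any pair of libraries. The cells formed 27 clusters, which were named from marker lists, and each class name stands for "like that cell type by its markers". Besides 3709 podocytes, the classes held 398 parietal epithelial, 1931 endothelial, 399 mesangial, 701 smooth muscle and renin, 585 proximal tubule, 49 thick limb and macula densa, 63 distal tubule, 121 principal, 124 intercalated, 217 mononuclear phagocyte and 114 T and NK cells, so the suspension held tubule and blood-derived cells beside those of the glomerulus. The female library was thin in places, with 52 female mesangial and 28 female principal cells. The estrogen receptor gene Esr1 gave 86 UMIs in the male, 76 in the female and 122 in the ERαKO library (2.7, 2.19 and 4.37 CPM over all kept cells). Podocytes held 4, 3 and 3 of these UMIs and parietal epithelial cells 5, 0 and 6. Whether the 3′ tags lie in the deleted part of Esr1 is not stated in the labels, so these counts do not check the knockout label.

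Ptgs1, the constitutive cyclooxygenase, was highest in principal cells of the collecting duct, which reabsorb water and sodium. The gene lies on chromosome 2, from 36230426 to 36252272 on the plus strand (GRCm38, as are all positions below). Principal cells held 262 CPM in the male (95% interval 231 to 296), 274 in the female (235 to 318) and 261 in the ERαKO library (223 to 304). These 3 values overlapped each other and stood above every library of every other named class. A Ptgs1 UMI was found in 96.2%, 92.9% and 97.5% of principal cells, against 1.91% to 2.25% of podocytes. Principal cells were also deeper, with medians of 14494 to 20972 UMIs against 7319 to 9177.5 in podocytes; after thinning every cell to 4000 UMIs the shares were 69.8%, 60.7% and 60% against 0.689% to 1.35%. Of all Ptgs1 UMIs in kept cells, however, principal cells gave only 18.5%, and endothelial cells, the more numerous class, 45.9%. Endothelial cells held 87.5, 85.7 and 69.0 CPM (male, female, ERαKO), mesangial cells, the contractile support cells of the capillary tuft, 73.9, 106 and 83.2, and intercalated cells, the acid-handling cells of the collecting duct, 54.3, 107 and 30.3. The ranges of these 3 classes overlapped, so their order is not resolved. Parietal epithelial cells, which line the capsule around the tuft, held 20.8 to 22.0 CPM, and podocytes, the cells that wrap its capillaries, 2.11 to 2.65 CPM.

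Ptgs2, the inducible cyclooxygenase on chromosome 1 (150100031 to 150108227, plus strand), had a different set of cells. Mononuclear phagocytes led with 116 CPM in the male (91.9 to 145), 134 in the female (108 to 163) and 78.6 in the ERαKO library (53.0 to 112). Thick limb and macula densa cells followed with 45.4, 70.0 and 78.2 CPM, from 16, 14 and 38 UMIs in 18, 8 and 23 cells. In the ERαKO library these classes were level, and the female thick limb value rests on 14 UMIs. Their order is therefore not resolved in those libraries. Endothelial cells held 12.5, 26.5 and 17.2 CPM and, being numerous, 52.7% of all Ptgs2 UMIs. A level this low in a large class was not spread over it, as the cluster values below show. Principal cells, the leading class for Ptgs1, held no Ptgs2 UMI in any library, which allows at most 3.07 CPM in the male, 4.68 in the female and 4.75 in the ERαKO library. Podocytes gave 2, 1 and 0 UMIs among 3709 cells.

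The sequences ahead of the starts of these paired enzymes are shown because the genes encode the same reaction and were read in different classes. Each line gives the 250 bases before the start listed in RefSeq (GRCm38.p6), 5′ to 3′ on the gene's own strand, with matches to 4 motifs in capitals: the TATA box (TATAAA), the cyclic AMP response element (TGACGTCA), the GC box (GGGCGG) and the E box (CACGTG), each searched on both strands.
Ptgs1, chr2:36230176-36230425, plus strand: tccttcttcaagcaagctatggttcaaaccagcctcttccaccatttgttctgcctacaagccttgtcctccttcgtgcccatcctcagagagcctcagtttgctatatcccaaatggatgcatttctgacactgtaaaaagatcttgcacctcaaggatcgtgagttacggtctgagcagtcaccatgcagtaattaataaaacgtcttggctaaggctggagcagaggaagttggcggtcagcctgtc
Ptgs2, chr1:150099781-150100030, plus strand: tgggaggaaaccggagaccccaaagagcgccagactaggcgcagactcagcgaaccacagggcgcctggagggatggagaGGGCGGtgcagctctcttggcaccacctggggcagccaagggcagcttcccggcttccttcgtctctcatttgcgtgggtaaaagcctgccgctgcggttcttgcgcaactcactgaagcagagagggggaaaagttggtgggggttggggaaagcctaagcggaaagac
The Ptgs1 window was 48% G and C and held none of the 4 motifs. The Ptgs2 window was 61.6% G and C and held 1 GC box, 170 bases before the start, and it also holds an exon of the noncoding gene Ptgs2os. Over 32851 windows of this length in RefSeq, 32.7% held a GC box, 12.4% a TATA box, 6.02% an E box and 1.55% a cyclic AMP response element. A missing match says only that these letters are not in the window.

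**Figure D1:**
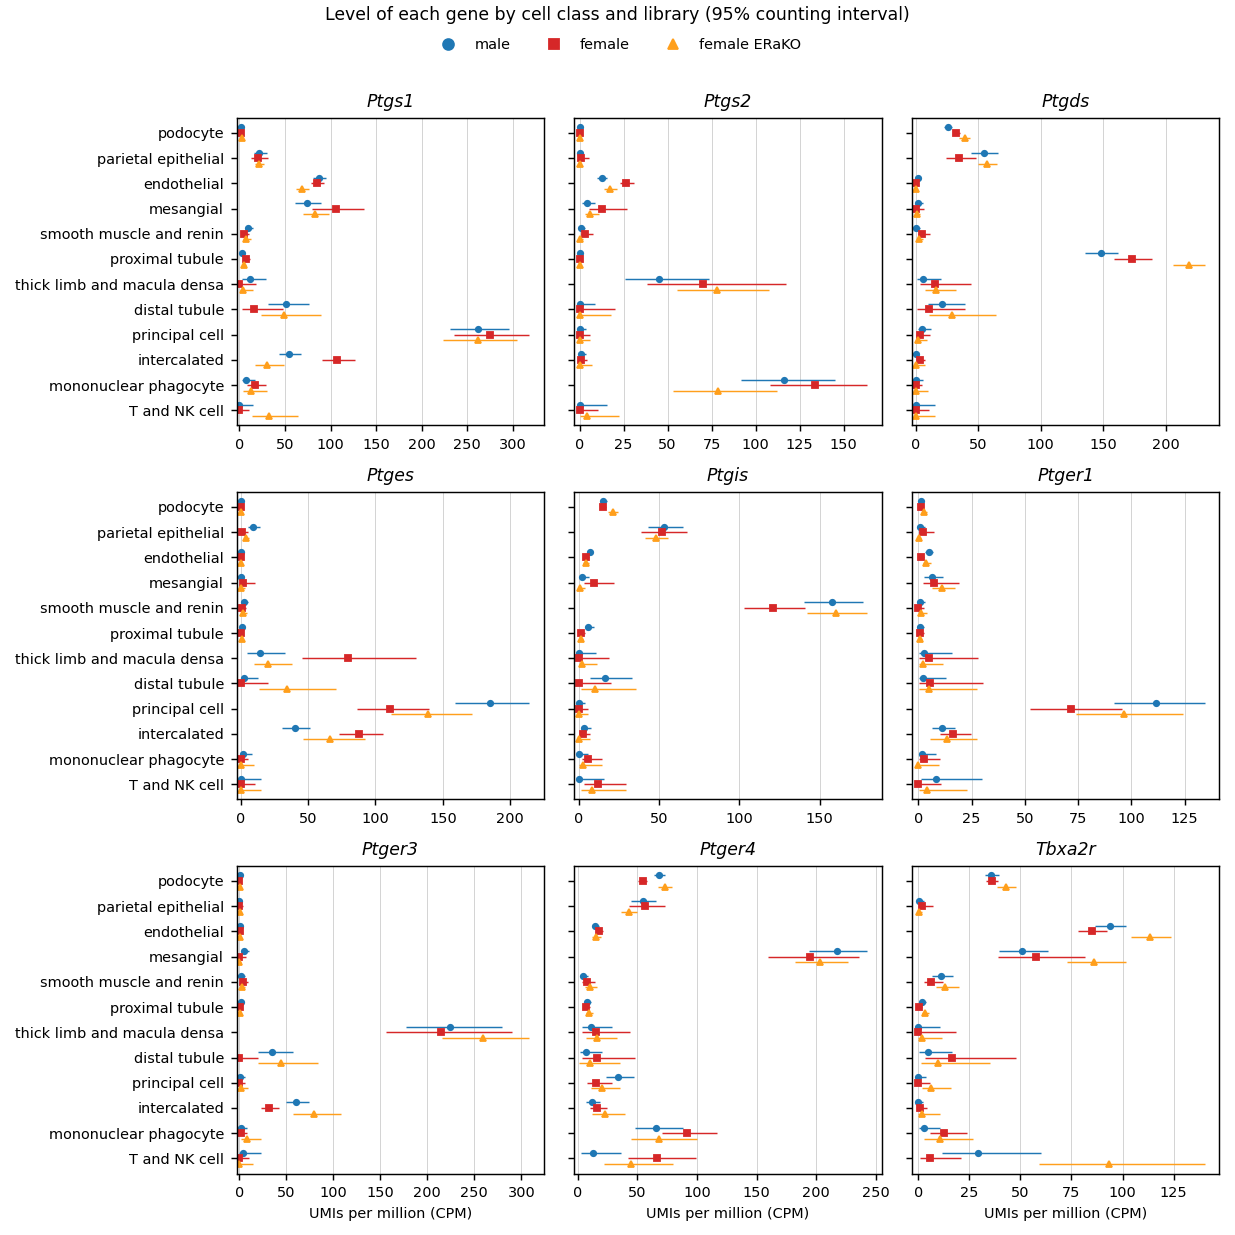
Normalised UMIs (CPM, horizontal axis) of the 9 genes in 12 cell classes (rows) in the male, female and ERαKO libraries (symbols), with 95% counting intervals as bars. Ptgs1, Ptges and Ptger1 have their highest points in principal cells, Ptger3 in thick limb and macula densa cells, Ptger4 in mesangial cells and Ptgis in smooth muscle and renin cells.

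The macula densa is a plaque of tubule cells that senses salt at the glomerulus, and Nos1 is one of its defining genes. The 49 thick limb and macula densa cells were therefore split by whether they held a Nos1 UMI, which 23 did. Those 23 cells held 65 Ptgs2 UMIs (106 CPM, 81.8 to 135), and the 26 others held 3 (7.05 CPM, 1.45 to 20.6). Within the Nos1-positive cells Ptgs2 was 77.7 CPM in the male (7 cells), 94.9 in the female (4 cells) and 127 in the ERαKO library (12 cells). Ptges, the inducible prostaglandin E synthase, followed the same split with 28 UMIs (45.7 CPM) against 3 (7.05 CPM). Of these 28, 16 came from the 4 female cells, and 1 cell gave 62.5% of those 16. Ptger3 did not follow the Nos1 split, at 261 CPM in the cells with Nos1 and 207 in those without, with intervals of 222 to 305 and 166 to 255. The cells with Nos1 were deeper, with a median of 27835 UMIs against 12770, and the part of that depth in the split was not tested. Erythroid markers summed to 34254 CPM in the female cells of this class, against 2.83 in the male and 8.23 in the ERαKO ones. Their part was not tested either.

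Ptges lies on chromosome 2 (30889471 to 30929863, minus strand). Its highest class was again the principal cells, with 185 CPM in the male (159 to 214), 111 in the female (86.5 to 140) and 139 in the ERαKO library (112 to 172). The female value was the lowest, and its interval overlapped that of the ERαKO library but not that of the male. Intercalated cells were next with 40.3, 87.9 and 66.3 CPM, and these classes gave most of its UMIs, 48.7% and 30.9%. Podocytes held 0.171 to 0.504 CPM. In principal cells Ptgs1 and Ptges were found in the same cell in 98 of 121 cells (81.0%), close to the 80.0% that the product of their shares gives.

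Intercalated cells were less uniform. Their principal-cell marker sum was 1980 CPM in the male, 4136 in the female and 1824 in the ERαKO library, and 51 of 124 intercalated cells held a UMI of Aqp2, the water channel that defines principal cells. Those 51 cells had 124 CPM of Ptgs1, 90.5 of Ptges and 23.9 of Ptger1. The 73 cells without Aqp2 had 4.63 CPM of Ptgs1, 27.8 of Ptges and no Ptger1 UMI. Ptger3 went the other way, at 35.4 CPM with Aqp2 and 73.4 without. Cells with Aqp2 numbered 23 of 34 in the female library, 21 of 64 in the male and 7 of 26 in the ERαKO library. Intercalated Ptgs1 levels had this order, but intercalated Ptges and Ptger1 did not and were lowest in the male library. Cells with Aqp2 were deeper as well, with a median of 31426 UMIs against 17166, and the part of cells captured together in these values was not tested.

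**Figure D2:**
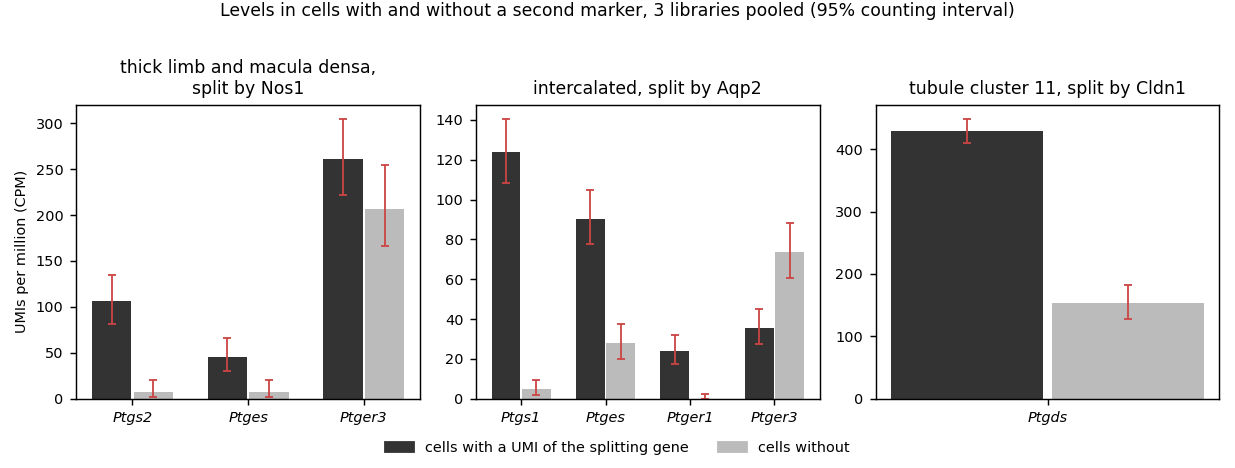
Pooled normalised UMIs (CPM, vertical axis) of members in cells with (dark bars) and without (light bars) a UMI of Nos1, Aqp2 or Cldn1, over the 3 libraries, with 95% counting intervals. Ptgs2 and Ptges are higher with Nos1, Ptgs1, Ptges and Ptger1 are higher with Aqp2, Ptger3 is lower with Aqp2, and Ptgds is higher with Cldn1.

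Ptgis, prostacyclin synthase, was a gene of the smooth muscle and renin class, with 158 CPM in the male (140 to 177), 121 in the female (103 to 141) and 160 in the ERαKO library (142 to 180). It lies on chromosome 2 from 167191805 to 167240604 on the minus strand. Within that class the cluster led by Myh11 and Cnn1, genes of contractile smooth muscle, held 351, 443 and 416 CPM, the cluster led by Ren1, the renin gene, 147, 81.8 and 121, and the cluster led by Rgs5 and Rergl 67.6, 54.5 and 56.5. The Myh11 cluster thus lay above both others in each library. Parietal epithelial cells held 47.9 to 53.2 CPM and podocytes 14.95, 15.05 and 21.04. No Ptgis UMI was found in principal cells.

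The podocyte level of Ptgis came almost wholly from 1 of the 4 podocyte clusters. This cluster, led by Cst12, Igfbp6 and Dkk3, held 436 of the 3709 podocytes and 588 of the 609 podocyte Ptgis UMIs. Its cells carried 127 CPM in the male, 129 in the female and 191 in the ERαKO library. All 9 podocyte markers were raised in it, but their sum was 10291 to 14194 CPM against 23910 to 26614 in the other podocyte clusters. Its smooth muscle and renin markers summed to 1284 to 3008 CPM against 32.2 to 135, and its next best marker list was that of parietal epithelial cells. It made up 12.0%, 11.6% and 11.7% of podocytes in the 3 libraries, so its share differed little between them.

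Ptgds, which makes prostaglandin D2 and is also a carrier of small lipids, shared that podocyte cluster and added a second site. Ptgds lies on chromosome 2 from 25466709 to 25470046, minus strand. The Cst12 cluster held 136, 135 and 154 CPM and 582 of the 1182 podocyte Ptgds UMIs, whereas the other 3 podocyte clusters held 9.19 to 29.7 CPM. Both Ptgds and Ptgis were found in 96 of 3709 podocytes (2.59%), against 0.861% from the product of their shares. No Ptgds UMI was found in mononuclear phagocytes or T and NK cells, which allows at most 4.22 to 7.86 CPM and 8.63 to 12.5 CPM in the libraries of these classes.

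The second and highest site of Ptgds was a tubule cluster of 223 cells led by Ugt2b37, Slc4a4, Gc and Slc5a12. It held 243 CPM in the male, 412 in the female and 497 in the ERαKO library, and 2095 of the 2112 Ptgds UMIs of the proximal tubule class. Although its leading genes are those of the proximal tubule, it also carried parietal epithelial markers, at a summed 2231, 1900 and 2366 CPM against 3463, 2820 and 3114 in the parietal epithelial cluster itself. Its cells were deep, at a median of 18643 UMIs. Of its cells, 166 held a UMI of Cldn1, a parietal epithelial marker, and these had 429 CPM of Ptgds, while the 57 without Cldn1 had 153. The median depths of these cells were 22367.5 and 11316 UMIs. Whether these are single cells or cells captured together was not tested, and the class that led for Ptgds changed with the way cells were named.

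**Figure D3:**
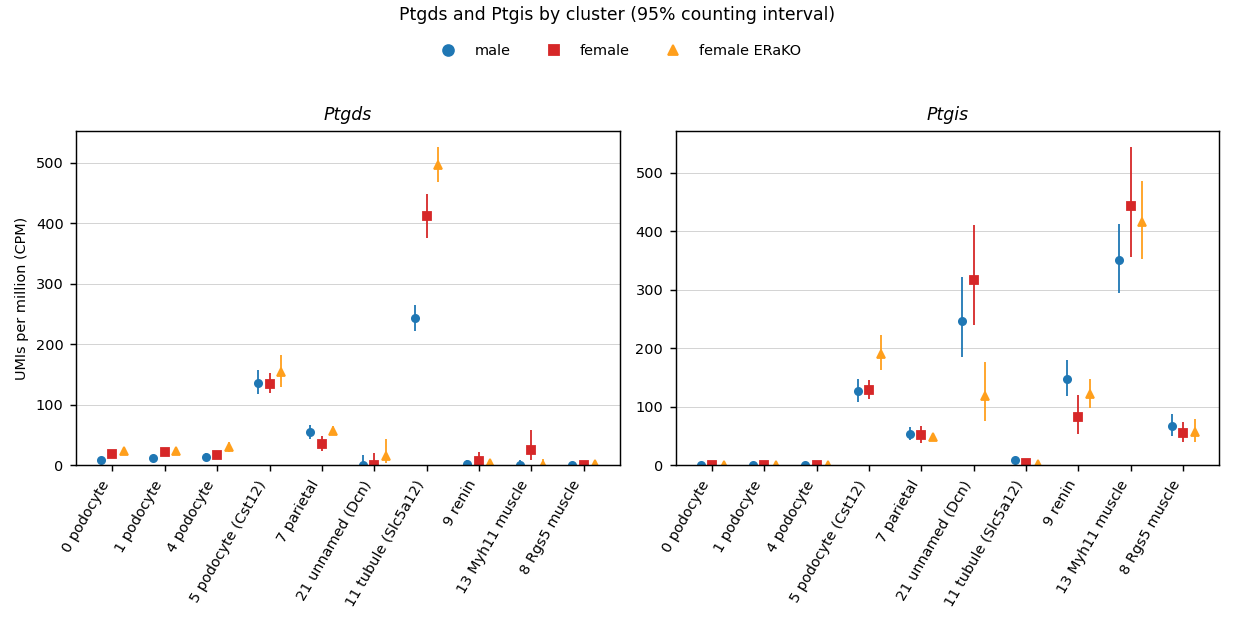
Normalised UMIs (CPM, vertical axis) of Ptgds and Ptgis in the podocyte, parietal epithelial, tubule and smooth muscle and renin clusters and 1 unnamed cluster (horizontal axis), 1 symbol per library, with 95% counting intervals. Among podocytes the Cst12 cluster stands above the other 3 for both genes; Ptgds peaks in the Slc5a12 tubule cluster and Ptgis in the Myh11 cluster.

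Ptger1, Ptger3 and Ptger4 encode the EP1, EP3 and EP4 receptors for prostaglandin E2, and each led in another class. Ptger1, whose receptor raises calcium, was highest in the collecting duct, with 112 CPM in the male (91.6 to 135), 71.7 in the female (52.5 to 95.7) and 96.6 in the ERαKO library (73.9 to 124) in principal cells. Those cells held 49.2% of its UMIs and intercalated cells 10.9, 16.4 and 13.3 CPM. The gene is on chromosome 8 (83666678 to 83672753, plus strand). Whether the counting used strand is not given in the sources used here, so for every member reads from the opposite strand cannot be told apart from its own, and low values of Ptger1 are uncertain for that reason.

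Ptger3, whose receptor lowers cyclic AMP, led in thick limb and macula densa cells with 224 CPM in the male (177 to 279), 215 in the female (156 to 290) and 259 in the ERαKO library (216 to 309). That class of 49 cells held 49.7% of its UMIs in kept cells, and intercalated cells another 35.9% at 60.7, 31.3 and 79.6 CPM. Distal tubule cells held 34.6 and 44.1 CPM in the male and ERαKO libraries and no UMI among 8 female cells. The distal tubule class also carried podocyte markers, at a summed 8732, 16486 and 6255 CPM against 23262 to 24960 in podocytes, so its values are those of a mixed class. The gene lies on chromosome 3 (157566892 to 157645888, plus strand).

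Ptger4, whose receptor raises cyclic AMP, led in mesangial cells with 218 CPM in the male (194 to 243), 195 in the female (159 to 236) and 204 in the ERαKO library (182 to 227). It was found in 68.7%, 76.9% and 79.9% of these cells. Mononuclear phagocytes (65.6, 91.4 and 68.1 CPM), podocytes (68.1, 54.3 and 73.1) and parietal epithelial cells (54.3, 56.5 and 42.5) followed with overlapping ranges, and podocytes held 55.4% of all its UMIs by their number. Ptger4 (chromosome 15, 5206661 to 5244187, minus strand) overlaps the opposite-strand gene Ttc33 by 11676 bases. Ttc33 stood at 63.1 CPM in mesangial cells and at 54.9 in podocytes, where pooled Ptger4 was 208 and 62.7, so in podocytes the overlapping gene was nearly as abundant as Ptger4.

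The windows ahead of Ptger3 and Ptger4 are shown because these receptors bind the same prostaglandin and led in different classes.
Ptger3, chr3:157566626-157566875, plus strand: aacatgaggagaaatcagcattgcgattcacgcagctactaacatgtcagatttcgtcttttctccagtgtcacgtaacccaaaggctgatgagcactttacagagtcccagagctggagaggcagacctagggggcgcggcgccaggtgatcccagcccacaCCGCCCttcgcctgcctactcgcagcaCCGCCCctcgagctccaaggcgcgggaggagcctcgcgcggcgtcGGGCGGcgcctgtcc
Ptger4, chr15:5244188-5244437, minus strand: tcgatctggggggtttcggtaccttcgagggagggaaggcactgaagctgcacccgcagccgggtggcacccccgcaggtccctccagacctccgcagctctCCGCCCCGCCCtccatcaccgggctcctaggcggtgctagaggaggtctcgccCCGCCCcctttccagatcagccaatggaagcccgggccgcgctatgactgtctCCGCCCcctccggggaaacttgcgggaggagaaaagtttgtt
Both were rich in G and C (62% and 66.8%). With the motifs capitalized as above, Ptger3 held 3 GC boxes at 87, 60 and 15 bases before the start and Ptger4 held 4, at 148, 143, 95 and 42 bases, of which the first 2 share 1 base. Neither window held any of the 3 other motifs.

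Tbxa2r, the receptor for thromboxane A2, which contracts vessels and activates platelets, led in endothelial cells with 94.1 CPM in the male (86.7 to 102), 85.2 in the female (78.5 to 92.3) and 114 in the ERαKO library (104 to 124). The gene is on chromosome 10 (81328731 to 81335172, plus strand). Mesangial cells held 50.6, 57.6 and 86.3 CPM and podocytes 35.9, 36.1 and 43.0, and these classes and the T and NK cells (29.1, 5.76 and 93.6 CPM from 7, 2 and 23 UMIs) overlapped their neighbours in the order. The T and NK class carried other cells' markers unevenly, with endothelial markers at 997, 633 and 3930 CPM and podocyte markers at 291, 1666 and 4552, so its ERαKO value was read in the library where these were highest, and their part was not tested. Endothelial cells gave 48.2% and podocytes 39.0% of its UMIs.

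The endothelial genes divided by cluster. The cluster led by Kdr, Gpihbp1 and Ehd3, of which Ehd3 marks glomerular capillaries, held 164, 156 and 142 CPM of Ptgs1 and 176, 160 and 244 CPM of Tbxa2r. The cluster led by Thbs2 had Sox17 and Fbln5, which are on the list of arterial markers, among its leading genes. It held 22.5, 23.2 and 20.1 CPM of Ptgs1 and 9.75, 6.36 and 12.5 of Tbxa2r. Ptgs2 was arranged the other way, at 27.7, 57.3 and 32.6 CPM in the Fbln5 cluster, which gave 335 of the 347 endothelial UMIs, and at 1, 2 and 0 UMIs in the Ehd3 cluster. Ptger4 also sat higher in the Fbln5 cluster, at 24.7, 33.7 and 24.9 CPM against 3.12, 2.99 and 3.34. In each library these 4 genes separated the 2 clusters without overlap. A cluster led by Calca and Fabp4 held 96.2, 87.0 and 119 CPM of Ptgs1 and 99.1, 105 and 173 of Tbxa2r, between the others. A cluster led by Esm1 and Igfbp3 held little Ptgs1 (20.4, 4.95 and 27.3 CPM) but 118, 129 and 226 CPM of Tbxa2r. The 6 arterial markers of the list summed to 3205, 2642 and 2707 CPM in this Esm1 cluster. In the Fbln5 cluster they summed to 1952, 1667 and 1746 CPM, so the list does not single out the Fbln5 cluster as arterial. Ptgs1 and Tbxa2r were found together in 489 of 1931 endothelial cells (25.3%), against 19.7% from the product of their shares.

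**Figure D4:**
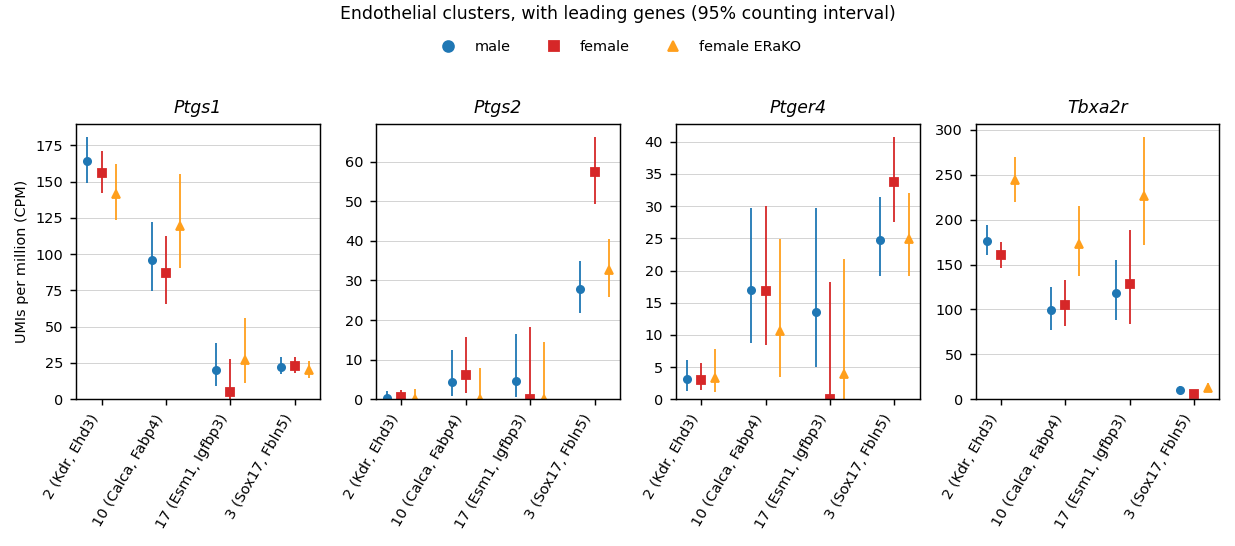
Normalised UMIs (CPM, vertical axis) of Ptgs1, Ptgs2, Ptger4 and Tbxa2r in the 4 endothelial clusters (horizontal axis, with leading genes), 1 symbol per library, with 95% counting intervals. Ptgs1 and Tbxa2r are high in the Ehd3 cluster and low in the Fbln5 cluster, and Ptgs2 and Ptger4 are the reverse.

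The study set the male and the ERαKO library against the female one. Both comparisons use the same female library, so their results are not independent. A difference was called where it reached 1.5-fold in CPM (with 1 CPM added to each) and the paired libraries held at least 20 UMIs of the gene in the class, over the 7 classes with at least 30 cells in every library. No p-value can be given with 1 library per group. Of 63 pairs of gene and class, 28 had enough UMIs for male over female and 29 for ERαKO over female. The male library was higher in 5 pairs and lower in 2, and over all genes 7.06% of pairs of gene and class were higher and 7.59% lower by the same limits (14.7% either way). The ERαKO library was higher in 4 pairs and lower in 3, against 7.36% higher and 7.75% lower over all genes (15.1% either way). The members' shares, 25% and 24.1%, come from few pairs of mostly low counts, and no test stands behind their distance from these backgrounds.

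**Figure D5:**
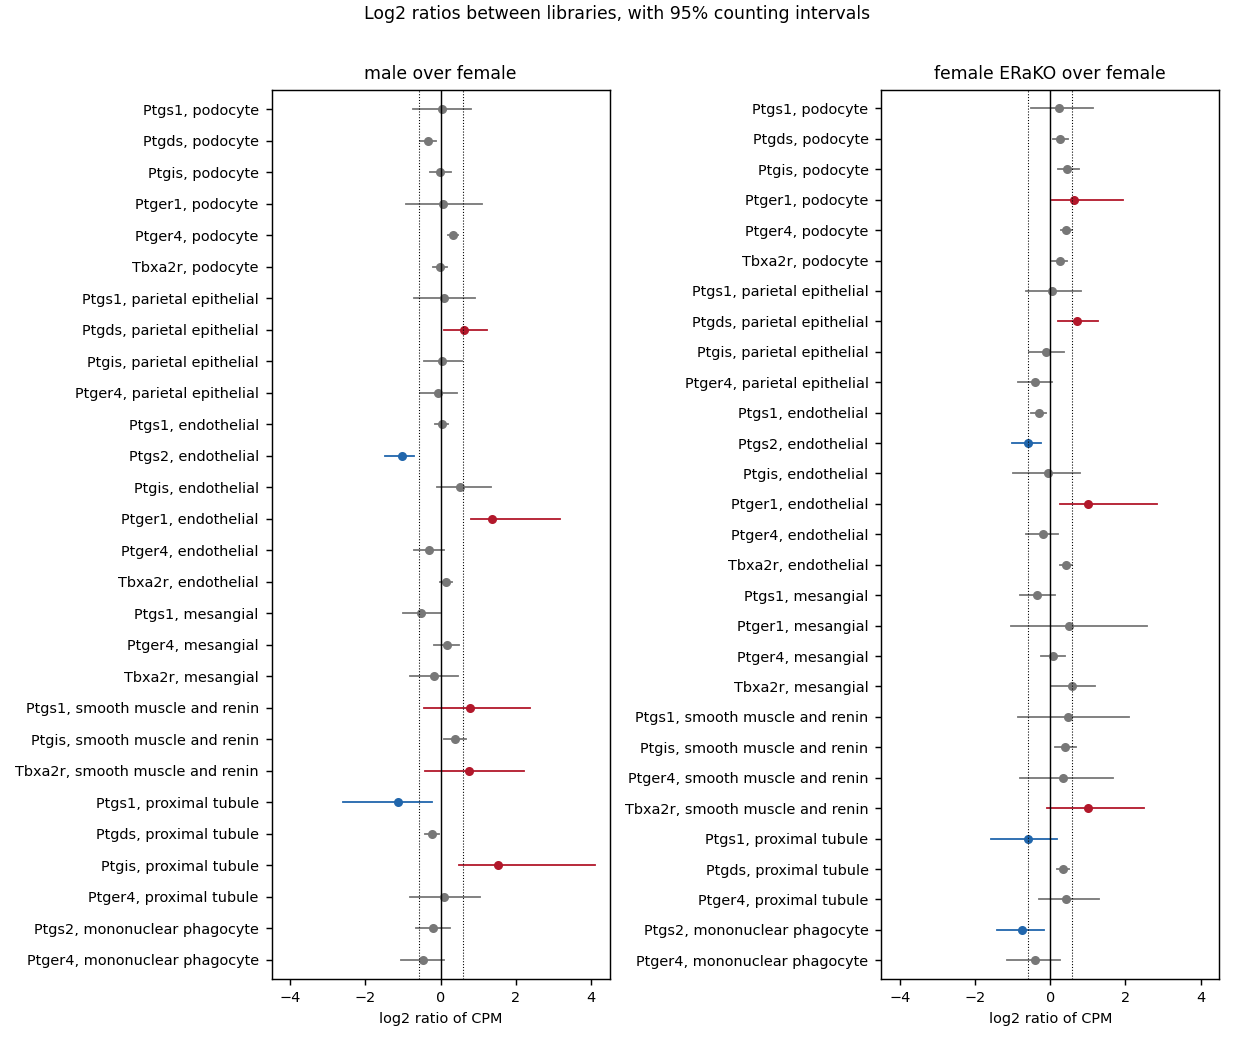
Log2 ratio of CPM (horizontal axis) of each pair of gene and class with at least 20 UMIs, male over female on the left and ERαKO over female on the right, with 95% counting intervals as lines. Dotted lines mark 1.5-fold, red points are called higher (5 and 4), blue points lower (2 and 3) and grey points are within the limit.

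In endothelial cells, where 6.22% of all genes passed the limits for male over female and 8.87% for ERαKO over female, Ptgs2 was lower in both libraries than in the female. With 80 male, 186 female and 81 ERαKO UMIs, the log2 ratio was -1.02 for the male (95% counting interval -1.48 to -0.69) and -0.60 for the ERαKO library (-1.02 to -0.24). In the Fbln5 cluster alone, which was examined after its values were seen, the ratios were -1.02 (-1.46 to -0.65) and -0.79 (-1.21 to -0.43), among 9.38% and 11.5% of genes past the limits there. The male difference stayed past 1.5-fold under all 10 alternative ways of processing (-1.03 to -0.85), and the ERαKO difference under 5 of 10. Immediate early genes are induced rapidly by many stimuli, as Ptgs2 can be. In this cluster they summed to 12586 CPM in the male, 9662 in the female and 8929 in the ERαKO library. The part of these genes in the Ptgs2 ratios was not tested. The mononuclear phagocyte markers summed to 6.03 to 8.25 CPM there, and the part of phagocyte RNA in these ratios was not tested. Smooth muscle and renin markers differed in this cluster, at 121 CPM in the male, 683 in the female and 958 in the ERαKO library, and so did erythroid markers, at 7.87, 1236 and 14.1 CPM, and their part in the Ptgs2 ratios was not tested.

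Ptger1 was higher in endothelial cells of the male (31 against 9 UMIs, log2 ratio 1.36, 0.82 to 3.18) and of the ERαKO library (17 against 9, 1.01, 0.25 to 2.84). The levels were low, 4.86 and 3.61 CPM against 1.28, and the part of reads from the opposite strand in this difference was not tested.

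Endothelial Tbxa2r differed more within clusters than over the class. Over all endothelial cells the ERαKO library stood 0.41 higher on the log2 scale (0.25 to 0.59), short of 1.5-fold. Within the Ehd3 cluster it was 0.60 higher (0.41 to 0.81), within the Fbln5 cluster 0.87 (0.11 to 1.86) and within the Calca cluster 0.71 (0.23 to 1.20), all past 1.5-fold, against 12.5%, 11.5% and 19.2% of genes in these clusters. The Ehd3 cluster, which carries much of the Tbxa2r, made up 54.2% of female endothelial cells (374 of 690) but 36.2% of ERαKO ones (171 of 472), and the Fbln5 cluster, which carries little, 31.0% and 44.1%. Mesangial Tbxa2r was 0.58 higher in the ERαKO library (0.02 to 1.19) and podocyte Tbxa2r 0.25 higher, both short of the limit. Endothelial markers in the mesangial class stood at 1265 CPM in the male, 3622 in the female and 3661 in the ERαKO library. Their part in mesangial Tbxa2r was not tested. Without the highest cell of each library the 3 cluster ratios were 0.62, 0.92 and 0.74. These clusters were examined after the values were seen. In the male library Tbxa2r was within 1.5-fold of the female in all 3 clusters (0.14, 0.55 and -0.09).

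In mononuclear phagocytes, with 27.6% and 27.9% of genes past the limits, Ptgs2 was lower in the ERαKO library (30 against 95 UMIs, log2 ratio -0.76, -1.41 to -0.16) and within 1.5-fold in the male (-0.20). Immediate early genes were also lower in this class in both libraries, by a median of -0.37 with 4 of 12 past the limit in each, and the part of that shift in Ptgs2 was not tested. Some markers of other cell types were highest in the female phagocytes. Neutrophil markers stood at 215 CPM there against 57.6 in the ERαKO and 50.7 in the male library, and endothelial markers at 2438 against 1089 and 229. Others were lowest in the female: smooth muscle and renin markers at 47.8 CPM against 272 and 1914, and distal tubule markers at 98.5 against 113 and 518. The part of all these markers was not tested either. A share of 27.9% over all genes leaves little to read from 1 gene.

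In podocytes, the class with the most UMIs, 3.56% of genes passed the limits for male over female and none of the 6 members measured did. For ERαKO over female 6.42% of genes passed, and 1 of 6 members did: Ptger1, at 0.64 (0.06 to 1.95) from 20 and 22 UMIs. Ptger4 was better counted, and both libraries stood above the female by less than 1.5-fold, 0.32 in the male (0.19 to 0.46) and 0.42 in the ERαKO library (0.28 to 0.58). Immediate early genes of podocytes moved the same way, with a median of 0.48 in the male (3 of 12 past the limit upward, 1 downward) and 0.56 in the ERαKO library (6 of 12 upward), and their part was not tested. The median of the 6 members was 0.01 for the male and 0.34 for the ERαKO library, beside 0.02 and -0.00 over all genes of the class.

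Podocyte Ptgds also differed by cluster. Over the whole class the log2 ratio was -0.32 for the male and 0.27 for the ERαKO library. The Cst12 cluster did not differ past the limit in either comparison (0.02 and 0.19), while in the largest other podocyte cluster the male library held 39 UMIs against 140 (9.19 against 19.4 CPM, log2 ratio -1.005, -1.63 to -0.56) and in the next largest 51 against 107 (-0.73, -1.29 to -0.28). One female cell gave 27 of those 107 UMIs, and without the highest cell of each library the second ratio was -0.47, within the limit, while the first was -0.93. In these clusters 5.92% and 6.15% of genes passed the limits. In the third the ratio was -0.23. Podocyte Ptgis was even between male and female (-0.01) and 0.46 higher in the ERαKO library, and in the Cst12 cluster that carries it the ratio was 0.56 (0.27 to 0.85), just short of the limit. Between the female and the ERαKO library the podocyte markers of this cluster went from 14194 to 10291 CPM and its smooth muscle and renin markers from 1972 to 3008, and their part in the ratio was not tested.

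In parietal epithelial cells, with 18.9% and 19.5% of genes past the limits, Ptgds was the called member in both comparisons, at 0.63 for the male (0.08 to 1.24) and 0.70 for the ERαKO library (0.20 to 1.28) from 101, 35 and 223 UMIs. Its direction turned under several other ways of processing, so no direction can be drawn from it. Ptgis (53.2, 51.5 and 47.9 CPM) and Ptgs1 (22.0, 20.8 and 21.5 CPM) in the same cells were nearly level across the libraries.

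In the smooth muscle and renin class 15.1% and 18.0% of genes passed the limits. Tbxa2r was higher in the male at 0.75 and in the ERαKO library at 1.01, and Ptgs1 in the male at 0.77. The Ptgs1 call was kept under 4 of 10 alternatives. Each of these 3 intervals included 0 (-0.41 to 2.23, -0.08 to 2.48 and -0.45 to 2.38). Ptgis, with 158 to 289 UMIs a library, was 0.38 higher in the male (0.10 to 0.68) and 0.40 in the ERαKO library (0.12 to 0.70), short of the limit. The Ren1 cluster, 21.2% of the female class, made up 34.6% of it in the male and 44.4% in the ERαKO library, and within that cluster the male ratio was 0.84 (0.20 to 1.53), where 24.3% of genes passed. In the Myh11 cluster, the highest for Ptgis, the male value lay below the female one (351 against 443 CPM, with 28 female cells). Immediate early genes were lower in this class in the ERαKO library, 9 of 12 past the limit.

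In the proximal tubule class 20.1% and 13.9% of genes passed the limits, and different clusters made up the class in each library. A cluster led by Miox held 97 male, 3 female and 36 ERαKO cells, while those led by Aadat and by Pck1 held 1 and 0 male cells. Ptgs1 was lower in the male (-1.12, -2.59 to -0.23) and the ERαKO library (-0.60, -1.58 to 0.18), at 3.08 and 4.85 CPM against 7.89, and Ptgis was higher in the male from 19 UMIs against 4 (1.53, 0.50 to 4.11). Of the 18 male UMIs of Ptgis in the Slc5a12 cluster, 72.2% came from 1 cell, and the call was kept under only 3 of 9 alternatives and lost without the highest cell. Ptgs1 stayed called under 5 of 9 alternatives in the male and 1 of 9 in the ERαKO library. Ptgds was within 1.5-fold for the class, but in the Slc5a12 cluster that carries it the male library was lower (-0.76, -0.94 to -0.58), among 22.0% of genes. In mesangial cells, with 19.1% and 18.8% of genes past the limits, none of the 3 members measured for the male and none of the 4 for the ERαKO library passed.

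Other genes of the pathway were followed through 5 lists that hold 35 genes between them. Over the 7 classes 114 of their 245 pairs had enough UMIs in each comparison. The male library was higher in 15 and lower in 11, and the ERαKO library higher in 14 and lower in 10, against 14.7% and 15.1% over all pairs of gene and class.

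Among the phospholipases, Pla2g4a, the cytosolic enzyme that frees arachidonic acid, was highest in mesangial cells (266, 201 and 241 CPM), and endothelial cells held 60.02% of its UMIs at 130, 122 and 128 CPM. Both classes also carried Ptgs1. Among the other prostanoid synthases, Ptges3 was broad, with 285, 260 and 261 CPM in mesangial cells and 240, 248 and 232 in podocytes. Akr1b3, an aldose reductase with prostaglandin F synthase activity, had 56.2% of its UMIs in podocytes at 233, 231 and 256 CPM. Akr1c18 stood out in the proximal tubule class, with 23.7 CPM in the male, 746 in the female and 363 in the ERαKO library. Its log2 ratio was -4.92 for the male (-5.32 to -4.65) and -1.04 for the ERαKO library, and 96.6% of its UMIs were in this class. Cbr1, a carbonyl reductase that acts on prostaglandin E2, had 54.8, 634 and 582 CPM there, a male ratio of -3.51. Hpgd, the dehydrogenase that begins prostaglandin breakdown, had 11.4, 68.9 and 59.7 CPM there, a male ratio of -2.50. Because the clusters that make up the proximal tubule class differed between the libraries, their part in these ratios was not tested.

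Hpgd was also found in mononuclear phagocytes at 180, 113 and 162 CPM, and in endothelial cells the male library was higher by 1.10. Slco2a1, the importer that clears prostaglandins, was highest in mesangial cells (491, 503 and 366 CPM) and in endothelial cells (428, 395 and 380). Among the other receptors, Ptgir, the prostacyclin receptor, had 56.6% of its UMIs in the smooth muscle and renin class, where Ptgis also led, at 29.5, 46.7 and 26.6 CPM, with ratios of -0.64 and -0.79. Ptgfr, the receptor for prostaglandin F, was highest in distal tubule cells (267, 273 and 235 CPM), a class with podocyte markers mixed in, and podocyte Ptgfr was 0.64 higher in the ERαKO library (0.32 to 1.09). In the lipoxygenase branch Alox5ap, which presents arachidonic acid to 5-lipoxygenase, had 65.8% of its UMIs in mononuclear phagocytes (733, 681 and 707 CPM). Ltb4r1, a leukotriene B4 receptor, had 90.4% there, at 67.0, 68.9 and 126 CPM and 0.86 higher in the ERαKO library. Alox12 had 81.7% of its UMIs in endothelial cells at 55.7, 40.9 and 71.8 CPM, 0.80 higher in the ERαKO library. Alox12 is among the leading genes of the Esm1 cluster, which made up 7.93% of male, 3.62% of female and 7.42% of ERαKO endothelial cells, and the part of that in the ratio was not tested. Ltc4s had 66.4% at 75.4, 72.7 and 79.9 CPM. No UMI of Ptgdr or Alox15 was found in the kept cells.

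Genes whose levels followed a member's most closely were found from the correlation of log2(CPM + 1) over 28 sums of a class and a library, from 11 classes with at least 30 cells, among 10943 genes. These points share libraries and depth, and the correlation is a description. For Ptgs1 they were Ampd3 (r = 0.915), Capn5 (0.896) and 2510046G10Rik (0.889). For Ptgs2 they were Gda (0.959), Alox5ap (0.953) and Lyn (0.944). For Ptges they included Fxyd4 (0.943) and Mcoln3 (0.942), of which Fxyd4 is a principal cell marker. For Ptgis they were Tenm2 (0.918), Nbl1 (0.857) and Tagln (0.854), of which Tagln is a smooth muscle marker. For Ptgds they were Scrn2 (0.922), Prkag3 (0.895) and Park7 (0.887). For Ptger4 they were Ppp1ca (0.835), Myh9 (0.795) and Cdk9 (0.775), the loosest set, and for Tbxa2r Bvht (0.894), Plpp1 (0.892) and Slc9a3r2 (0.882). Ptger1 and Ptger3 had 439 and 499 UMIs in kept cells, below the 500 set for this measure.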

How the data were processed

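Single cells from glomeruli of 3 mouse groups (male, female, female RPC-ERαKO; 1 library each) were read from the deposited 10x matrices, which hold raw UMI counts per gene and barcode. The submitters' processing notes name Cell Ranger 6.1.2, STAR 2.7.5a and mm10; the cell calling and the use of strand are not given in the sources used here. The libraries held 44585342 male, 44942380 female and 47522141 ERαKO UMIs in 4244, 3555 and 3986 barcodes. From these counts, barcodes were kept from 500 genes upward and up to a mitochondrial share of 25%, and doublets called per library with scanpy's Scrublet were removed. The lowest kept cell had 4286 UMIs. Cells were scaled to 10000 UMIs and log transformed, and 2000 variable genes (without the members and pathway lists), 30 components and 15 neighbours gave Leiden clusters at resolution 1. A cluster took the name of its best of 18 marker lists where at least 3 markers were raised 2-fold and it led clearly; 4 clusters stayed unnamed (2.35%, 2.52% and 1.62% of kept cells). The minima of this naming rule were set after the clusters had been seen.

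UMIs were summed per class and library and scaled to CPM. Intervals are exact (Poisson, Clopper-Pearson, and the conditional interval for the ratio of 2 counts, without the pseudocount of 1 CPM used for log2 ratios). With 1 library per group no test across animals was possible, and n is 1 in every comparison. All 9 members are described; a list gene was named where it had at least 100 UMIs in the class or where a class held most of its UMIs (over 50%). Likeness was measured only for members with at least 500 UMIs, and the 3 closest genes are given, except 1 that is not reported here. Pla2g2a was not matched and Prxl2b was matched as Fam213b, so 7 phospholipases were counted. Positions come from GENCODE M21, which matched 30934 of 31058 rows; 5 further rows were reporter sequences. RefSeq windows matched 7 of the 9 members. Members and lists were chosen with earlier results of these data known. The summing and interval code was tested on simulated data. Alternatives tried were a stricter filter, doublets kept, separate clustering, cell-by-cell classes, resolution 2, members allowed in clustering, TMM factors, a pseudocount of 5 CPM, a minimum of 50 counts, the highest cell left out and, chosen after seeing the data, single clusters and single clusters without the highest cell. Python 3.11.15, scanpy 1.11.5, anndata 0.12.19, pandas 2.3.3, numpy 2.4.6, scikit-learn 1.9.0, scipy 1.17.1, leidenalg 0.10.2, igraph 0.11.9 and matplotlib 3.10.9 were used.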

Additional observations from a re-analysis of the deposited data

Results flagged for a closer look

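Ptgs1 reached 282.1 CPM in an unnamed cluster of 30 cells led by Ly6d, Upk3a, Krt19 and Upk1a, genes of the lining of the urinary tract, above the pooled level of every named class. The interval of principal cells included this value in each library, so the order of the unnamed cluster and principal cells is not resolved. The unnamed cluster was drawn from 23 male, 2 female and 5 ERαKO cells, with 286, 40.7 and 349 CPM. No comparison used this cluster. The male and ERαKO levels were above what 3 UMIs would reach, and the female one, from 1 UMI, was below it.

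Ptgis reached 224 CPM in an unnamed cluster of 91 cells led by Dcn, Coch and Col6a1, with 246 CPM in the male, 316 in the female and 118 in the ERαKO library (34, 25 and 32 cells). The pooled level was above that of every named class, although the ERαKO value lay below the 160 CPM of smooth muscle and renin cells there. A class can sum several clusters, however. The Myh11 cluster within the smooth muscle and renin class held more Ptgis in each library, at 351, 443 and 416 CPM. The unnamed cluster was used in no comparison.

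Of all Ptger3 UMIs, 62.84% (859 of 1367) lay in the barcodes that the cell filter left out, 50.9% in the male, 73.8% in the female and 64.9% in the ERαKO library. Of 2939 such barcodes, 675 held at least 3 markers of the thick limb and macula densa; these gave 634 of the UMIs (65.2 CPM), with a median of 45.9% mitochondrial UMIs. The other members lost smaller shares, such as 39.1% of Ptges, 14.9% of Ptger1 and 14.0% of Ptgs1. The thick limb levels given above therefore come from the cells that passed the mitochondrial limit. The 675 excluded barcodes with thick limb and macula densa markers held 13 Ptgs2 UMIs (1.34 CPM, 0.712 to 2.29). That was below the Ptgs2 level of the kept cells of this class in every library.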

How the results depend on the processing

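No paired analysis was possible because each group holds 1 library, and leaving out a replicate was not possible for the same reason. TMM factors and leaving out the highest cell moved none of the 57 log2 ratios beyond its interval, although leaving out the highest cell ended the proximal tubule calls of male Ptgis (1.08, with too few UMIs left) and ERαKO Ptgs1, and clustering each library on its own moved 14. Ptgds in parietal epithelial cells turned direction: the ERαKO ratio became -0.80 with doublets kept, -0.80 with members allowed in clustering and -0.20 under the stricter filter, and the male ratio -0.38 with classes assigned cell by cell, -1.04 with doublets kept, -0.87 with members allowed and -0.55 under the stricter filter. Proximal tubule Ptgis in the male became -0.75 with doublets kept. Pairs called higher in the male (5) became 3 at resolution 2, 1 at 50 counts, 3 with doublets kept, 10 with separate clustering, 2 with a pseudocount of 5 CPM and 3 under the stricter filter. Pairs called lower in the male (2) became 1 at resolution 2, 1 at 50 counts, 7 with doublets kept, 5 with separate clustering and 4 in single clusters. Pairs called higher in the ERαKO library (4) became 1 at 50 counts, 12 with separate clustering and 2 with a pseudocount of 5 CPM, and pairs called lower (3) became 6 and 1 under the last 2. The cause was not tested. Endothelial Ptgs2 remained called under 10 of 10 alternatives in the male and 5 of 10 in the ERαKO library. Endothelial Ptger1 remained called under 9 of 10 alternatives in the male and 8 of 10 in the ERαKO library, mononuclear phagocyte Ptgs2 under 8 of 9, podocyte Ptger1 under 7 of 10 and smooth muscle and renin Tbxa2r under 7 and 8 of 10. The weaker calls were smooth muscle and renin Ptgs1 (4 of 10), parietal epithelial Ptgds (4 and 6 of 10), proximal tubule Ptgis (3 of 9) and proximal tubule Ptgs1 (5 and 1 of 9). The class leading for Ptgds became parietal epithelial under the stricter filter (212 CPM), with doublets kept (82.6), with separate clustering (114) and at resolution 2 (51.4), and thin limb with cell-by-cell classes (184). Ptger3 led in principal cells under the stricter filter (23.3), Ptgs2 in thick limb and macula densa cells with separate clustering (46.7) and Ptgis in fibroblasts with cell-by-cell classes (212). The stricter filter allowed at most 10% mitochondrial UMIs, while the thick limb and intercalated clusters had medians of 17.4% and 20.2%. In the main processing principal cells held 1.02 CPM of Ptger3 in the male, 1.58 in the ERαKO library and no UMI in the female (at most 4.68 CPM). Few cells limit the thick limb and distal tubule values (8 female cells in each). Without the highest cell of each library, an alternative chosen after seeing the data, 1 of 10 ratios within single clusters crossed the limit, male Ptgds in the next largest podocyte cluster (-0.47).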

Other observations

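Mononuclear phagocytes were also split by marker. The 20 cells with a UMI of the complement genes C1qa, C1qb or C1qc held 197 CPM of Ptger4 and 88.1 of Ptgs2, while the 197 without held 65.6 and 118. These values are given without intervals, so no order is drawn for Ptgs2, and the part of depth in them was not tested.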
